A study of Homo sapiens with 9 samples.

Results

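Polycomb group proteins are chromatin regulators that keep genes silent, and the transcripts of 10 of their genes were followed across 3 related human breast epithelial cell lines. The 10 genes, EZH1, EZH2, EED, SUZ12, JARID2, BMI1, RING1, RNF2, PCGF2 and CBX8, were taken by symbol from the deposited gene tables, which list 62666 genes. All 10 had enough counts to be tested, among 17910 genes tested. Poly-A RNA was sequenced in 3 libraries of each line. MCF10A cells are spontaneously immortalised mammary epithelium and do not form tumours. MCF10AT1 descends from MCF10A by transfer of activated HRAS and stands for premalignant disease. MCF10Ca1a belongs to the same lineage and forms carcinomas. Each stage is 1 line, so stage and line cannot be told apart. All lines were cultured with insulin, epidermal growth factor, hydrocortisone and cholera toxin. MCF10A and MCF10Ca1a were kept in 5% horse serum and MCF10AT1 in 2.5%, so serum differs in the same direction as the line in each comparison with MCF10AT1. The labels do not say whether replicates came from separate cultures, so p-values measure the spread between these libraries, which may be technical.

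Polycomb repressive complex 2 (PRC2) places methyl groups on lysine 27 of histone H3. Its catalytic subunit is EZH2 or the paralog EZH1, which needs EED and SUZ12 beside it, and accessory proteins such as JARID2 guide it to chromatin. Polycomb repressive complex 1 (PRC1) attaches ubiquitin to histone H2A through the RING1 or RNF2 protein paired with 1 of 6 PCGF proteins, among them BMI1 (PCGF4) and PCGF2. CBX proteins, CBX8 included, join canonical PRC1 and read the mark that PRC2 makes. In mammary epithelium EZH2 and BMI1 have been studied for roles in progenitor cells and in tumours.

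In MCF10Ca1a cells the paralogs of 3 Polycomb pairs moved in opposite directions. EZH2, RNF2 and BMI1 transcripts were lower than in MCF10A, and those of EZH1, RING1 and PCGF2 were higher. In MCF10AT1, 6 of the 10 genes were lower than in MCF10A and 0 were higher, and 0 of the 10 changed by 2-fold or more.

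These shares have to be read against the number of genes that differed between the lines. At an edgeR adjusted p under 0.05, 61.6% of all tested genes differed between MCF10AT1 and MCF10A, 80.9% between MCF10Ca1a and MCF10A, and 78.4% between MCF10Ca1a and MCF10AT1. The Polycomb genes called were 6 of 10, 9 of 10 and 10 of 10, which is near those shares. Higher calls were 29.8%, 39.0% and 38.0% of all genes and lower calls 31.8%, 41.9% and 40.3%, beside 0, 4 and 5 higher and 6, 5 and 5 lower Polycomb genes. The CPM of the lines did not overlap for 7, 9 and 10 of the 10 genes, and for 65.4%, 81.5% and 81.9% of all genes tested. A change of at least 2-fold was called for 18.0%, 42.9% and 37.7% of all genes, and for 0, 3 and 2 of the Polycomb genes. The median absolute log2 change of the 10 genes was 0.16, 0.74 and 0.68 in the 3 comparisons, beside 0.38, 0.84 and 0.76 over all genes tested. The 3 comparisons share libraries, and the values of each are given side by side for that reason.

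Library totals ran from 32.9 to 69.5 M counts (M, mega-counts), with the 3 MCF10Ca1a libraries the shallowest at 32.9 to 35.2 M. MCF10A replicate 1 stood apart from replicate 3 more than any other pair of libraries of a line (chi-square per degree of freedom 68.3, beside 2.42 to 29.5 for the rest). Summed over 6 epithelial markers (keratins and CDH1 among them), the libraries ranged from 2971 to 3648 CPM (counts per M counts of the library after TMM scaling) in MCF10A, 4905 to 5473 in MCF10AT1 and 3162 to 3335 in MCF10Ca1a. In MCF10Ca1a against MCF10A the log2 change was -1.89 for KRT5, 1.30 for KRT18 and 2.36 for CDH1. The 4 blood cell markers summed to 8.60 to 9.46 CPM in MCF10A, 4.33 to 4.57 in MCF10AT1 and 0.149 to 0.338 in MCF10Ca1a, carried by CD14, and CD3E was at 0 in all 9 libraries. Of 3 endothelial markers the sum was 2.82 to 3.32 CPM in MCF10A, 3.23 to 4.17 in MCF10AT1 and 42.1 to 49.4 in MCF10Ca1a, carried by PECAM1, while CDH5 and VWF were at or near 0. The 5 fibroblast markers summed to 13.2 to 14.2, 33.8 to 34.96 and 5.28 to 5.95 CPM, with DCN higher (log2 change 2.79) and COL1A1 lower (-1.47) in MCF10AT1 than in MCF10A. The part of these marker lists in the results was not tested. HRAS averaged 41.0 ± 1.95, 97.6 ± 2.94 and 145 ± 3.59 CPM (SD, n = 3) in MCF10A, MCF10AT1 and MCF10Ca1a. In bulk RNA, fewer cells with a transcript and less of it per cell cannot be told apart.

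**Figure D1:**
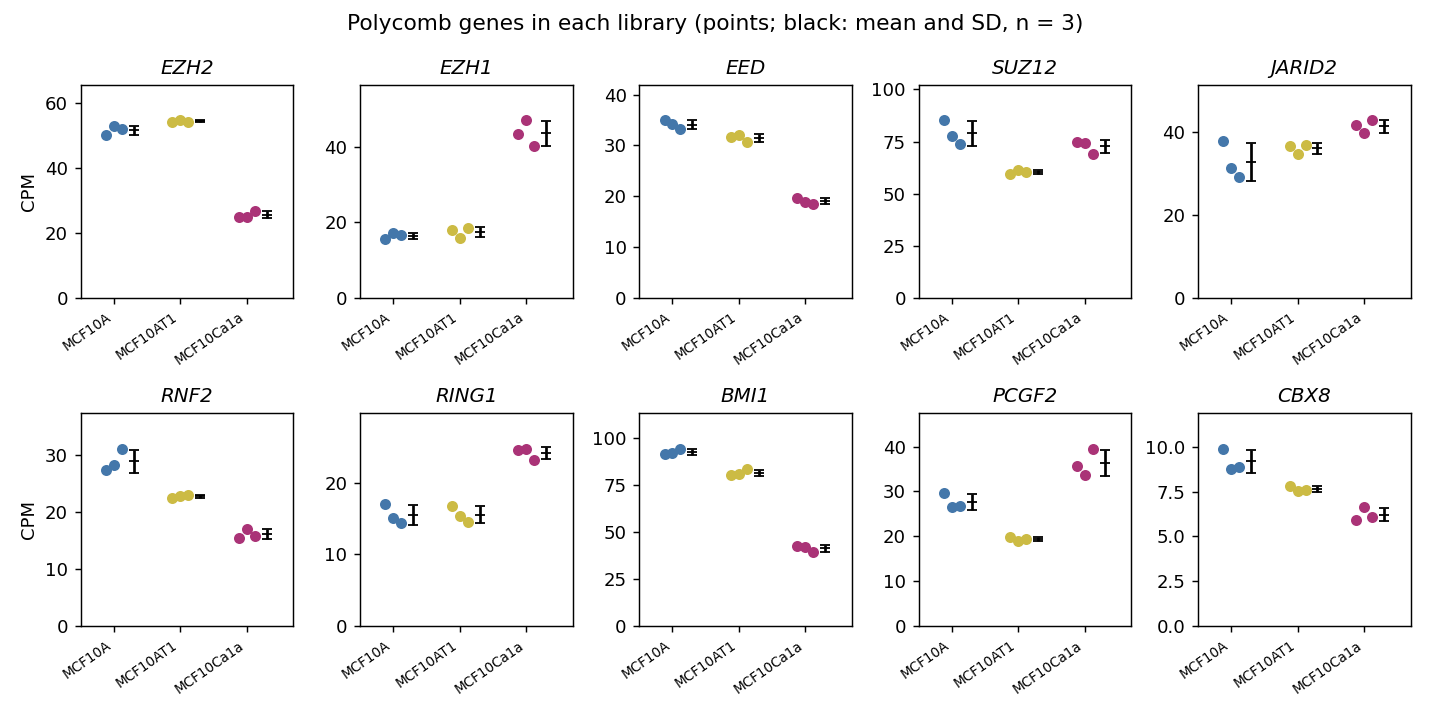
CPM of each Polycomb gene (y axis) in the 3 libraries of each line (points) with the mean and SD beside them (black, n = 3). The MCF10Ca1a libraries sit apart from both other lines for every gene except SUZ12, while SUZ12 and PCGF2 are lowest in MCF10AT1.

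The catalytic pair of PRC2 is shown first, with the promoter of each gene, because, of the 3 pairs among the 10 genes, these paralogs moved furthest apart between MCF10A and MCF10Ca1a. The 250 bases before the RefSeq start of each gene (GRCh38.p14, minus strand for both, printed 5′ to 3′ along the gene) were EZH2 chr7:148884292-148884541 and EZH1 chr17:42745041-42745290. Capitals mark CCAAT on either strand, the letters of the CCAAT box found in many promoters.
EZH2: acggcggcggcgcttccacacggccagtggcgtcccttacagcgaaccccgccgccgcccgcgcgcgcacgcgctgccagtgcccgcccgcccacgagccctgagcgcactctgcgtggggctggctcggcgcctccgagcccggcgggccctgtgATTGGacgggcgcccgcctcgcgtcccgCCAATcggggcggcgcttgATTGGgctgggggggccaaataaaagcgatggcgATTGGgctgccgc
EZH1: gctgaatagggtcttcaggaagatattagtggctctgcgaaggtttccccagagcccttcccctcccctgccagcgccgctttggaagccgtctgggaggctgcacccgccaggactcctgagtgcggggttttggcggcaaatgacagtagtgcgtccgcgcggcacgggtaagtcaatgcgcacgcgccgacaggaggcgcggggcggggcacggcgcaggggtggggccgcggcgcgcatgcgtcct
The EZH2 window held 4 CCAAT matches, 1 on the gene's strand and 3 on the other, and the EZH1 window held 0. At least 1 match was present in 32.0% of 35116 promoter windows of the same length, and at least 4 in 0.874%. A second EZH2 start in RefSeq, further into the gene, held 0. Of the 10 genes 9 had a promoter in the RefSeq table, in 12 windows, and CBX8 had none there. CCAAT was also found in windows of EED, JARID2 and SUZ12. Among 3 other motifs searched on both strands, all letters found in promoters of cell cycle genes, TTTCCCGC (1.39% of windows) and TTTGAA (13.3%) were each present in the SUZ12 window alone and TTTGGCGC (0.55%) in none of the 12. No matches in these windows overlapped. These matches are letters in a reference sequence, not measured binding.

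EZH2 (chr7:148807383-148884321, minus strand, GENCODE 29 on GRCh38) encodes the methyltransferase that predominates in dividing cells. It was measured at 50.3, 53.0 and 52.0 CPM in MCF10A, at 54.4, 54.8 and 54.4 CPM in MCF10AT1 and at 25.0, 24.9 and 26.8 CPM in MCF10Ca1a. All MCF10Ca1a libraries lay below all others, and MCF10AT1 was close to MCF10A, a little above it without overlap on this scale. EZH2 was 2.02-fold lower in MCF10Ca1a than in MCF10A (log2 change -1.02 ± 0.05 SE, edgeR adjusted p = 1.95e-10) and 2.13-fold lower than in MCF10AT1 (log2 change -1.09, adjusted p = 1.28e-10). Between MCF10AT1 and MCF10A its log2 change was 0.07 (adjusted p = 0.187).

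EZH1 (chr17:42700275-42745049, minus strand) encodes the second catalytic subunit, known for a weaker methyltransferase activity and for its presence in resting cells. Its values were 15.5, 17.1 and 16.5 CPM in MCF10A, 17.8, 15.9 and 18.4 CPM in MCF10AT1, and 43.3, 47.0 and 40.3 CPM in MCF10Ca1a. The first 2 lines overlapped and every MCF10Ca1a library was above them. EZH1 rose 2.66-fold against MCF10A (log2 change 1.41 ± 0.07 SE, edgeR adjusted p = 2.79e-10) and 2.51-fold against MCF10AT1 (log2 change 1.33, adjusted p = 7.05e-10). This was the largest rise among the 10 genes in both comparisons.

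On TPM, a per-length scale on which genes can be compared within a library, EZH2 was measured at 3.74, 4.16 and 3.78 times EZH1 in the MCF10A libraries and at 3.59, 4.32 and 3.40 times in MCF10AT1. In MCF10Ca1a the ratio was 0.642, 0.620 and 0.746, so EZH1 exceeded EZH2 in each of the 3. The ratio was 5.83-fold lower than in MCF10A (log2 difference -2.54, exact two-sided permutation p = 0.1) and 5.62-fold lower than in MCF10AT1 (exact permutation p = 0.1). With 3 libraries against 3, 0.1 is the smallest p this test can give, so it cannot pass 0.05. MCF10AT1 and MCF10A overlapped (log2 difference -0.05, exact permutation p = 0.6).

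EED (chr11:86244544-86278813, plus strand) encodes the subunit that binds methylated H3K27 and activates the enzyme. It was found at 34.9, 34.1 and 33.2 CPM in MCF10A, at 31.6, 32.1 and 30.6 CPM in MCF10AT1 and at 19.7, 18.8 and 18.5 CPM in MCF10Ca1a. The 3 lines did not overlap. EED fell by 0.84 on the log2 scale against MCF10A (SE 0.05, edgeR adjusted p = 1.92e-09) and by 0.72 against MCF10AT1 (adjusted p = 1.19e-08). Its difference between MCF10AT1 and MCF10A was -0.12 with an edgeR adjusted p = 0.0495, and the call was lost in most alternative analyses (adjusted p 0.0142 to 0.446 over them).

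SUZ12 (chr17:31937018-32001045, plus strand) encodes the scaffold of PRC2. Its levels were 85.2, 77.9 and 73.6 CPM in MCF10A, 59.3, 61.4 and 60.3 CPM in MCF10AT1, and 74.8, 74.2 and 69.0 CPM in MCF10Ca1a. The MCF10AT1 libraries lay below all others, while MCF10Ca1a and MCF10A overlapped. SUZ12 fell by 0.39 on the log2 scale in MCF10AT1 against MCF10A (SE 0.06, edgeR adjusted p = 6.12e-05) and was 0.27 higher in MCF10Ca1a than in MCF10AT1 (adjusted p = 9.16e-04). Against MCF10A, MCF10Ca1a differed by -0.12 (95% interval by normal approximation -0.23 to -0.0025, edgeR adjusted p = 0.0800). That comparison passed the threshold without MCF10A replicate 3 (log2 change -0.18, adjusted p = 0.00971) and with the length-scaled counts, scaled counts or no filter on low counts. On the log2(TPM + 1) scale the difference was 0.0017 (limma adjusted p = 0.987), with the sign turned. SUZ12 and PCGF2 were the members called lower in MCF10AT1 than in both other lines. The pseudogene SUZ12P1, with which SUZ12 reads could be shared, had 19.8 to 124 counts per library.

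JARID2 (chr6:15246296-15522040, plus strand) encodes an accessory subunit that helps PRC2 to bind chromatin. Its values were 38.0, 31.3 and 29.2 CPM in MCF10A, 36.6, 34.7 and 37.1 CPM in MCF10AT1, and 41.8, 39.9 and 42.9 CPM in MCF10Ca1a. MCF10A replicate 1 was above the other MCF10A libraries and above all 3 MCF10AT1 libraries, while the other 2 were below them. JARID2 was 0.34 higher on the log2 scale in MCF10Ca1a than in MCF10A (SE 0.08, edgeR adjusted p = 0.00162). The difference of 0.20 from MCF10AT1 (adjusted p = 0.0356) was lost in most alternatives, among them the omission of each MCF10AT1 library (adjusted p 0.0732 to 0.145). Without MCF10A replicate 1, MCF10AT1 was 0.26 higher than MCF10A (edgeR adjusted p = 4.91e-04), against 0.14 (adjusted p = 0.152) with all libraries.

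**Figure D2:**
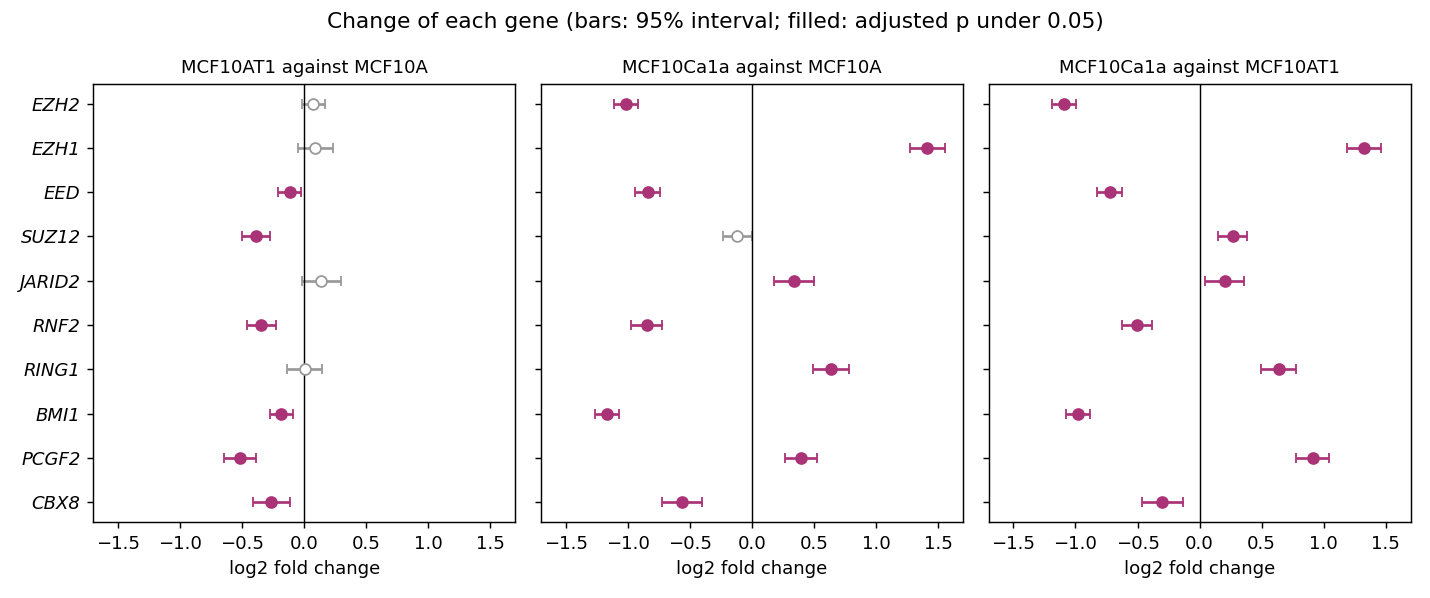
Log2 fold change (x axis) of each Polycomb gene (y axis) in 3 comparisons, with bars for the 95% interval (normal approximation from the SE) and filled points where the edgeR adjusted p is under 0.05. In MCF10AT1 the 6 filled points lie below 0; in MCF10Ca1a EZH1 (1.41 against MCF10A) and BMI1 (-1.17) are the extremes.

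The E3 ligases of PRC1 showed a change of the same kind with smaller sizes. RNF2 (RING1B, chr1:185045364-185102608, plus strand) encodes the main ubiquitin ligase of PRC1. It was measured at 27.3, 28.3 and 31.1 CPM in MCF10A, 22.4, 22.9 and 23.0 CPM in MCF10AT1, and 15.4, 17.0 and 15.8 CPM in MCF10Ca1a. The 3 lines were ordered without overlap, and RNF2 fell by 0.85 in MCF10Ca1a against MCF10A (SE 0.06, edgeR adjusted p = 1.67e-08) and by 0.34 in MCF10AT1 (adjusted p = 1.70e-04). Against MCF10AT1 it fell by 0.50 in MCF10Ca1a (edgeR adjusted p = 5.28e-06). The last difference was -0.06 on the log2(TPM + 1) scale (limma adjusted p = 0.329), so that call depends on the scale.

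RING1 (chr6:33208495-33212722, plus strand) encodes the paralogous ligase. Its values were 17.1, 15.1 and 14.4 CPM in MCF10A, 16.8, 15.4 and 14.5 CPM in MCF10AT1, and 24.6, 24.8 and 23.2 CPM in MCF10Ca1a. MCF10A and MCF10AT1 were alike in range and MCF10Ca1a lay above both. RING1 rose by 0.64 on the log2 scale against either line (SE 0.07 in both, edgeR adjusted p = 2.01e-06 against MCF10A and 2.30e-06 against MCF10AT1). The ratio of RNF2 to RING1 in TPM was 2.41 ± 0.44 in MCF10A, 1.92 ± 0.14 in MCF10AT1 and 0.960 ± 0.057 in MCF10Ca1a (SD, n = 3). It was 2.48-fold lower in MCF10Ca1a than in MCF10A, with no overlap (exact permutation p = 0.1, the smallest possible).

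BMI1 (chr10:22321211-22331484, plus strand) encodes the PCGF protein of canonical PRC1 that is known as an oncogene product. Its libraries gave 91.4, 91.9 and 94.4 CPM in MCF10A, 80.5, 80.7 and 83.3 CPM in MCF10AT1, and 42.6, 41.9 and 39.2 CPM in MCF10Ca1a. The lines did not overlap, and MCF10Ca1a was far below the other lines. BMI1 was 2.24-fold lower in MCF10Ca1a than in MCF10A (log2 change -1.17 ± 0.05 SE, edgeR adjusted p = 4.39e-11), the largest fall among the 10 genes in that comparison. It fell by 0.98 against MCF10AT1 (adjusted p = 3.72e-10) and by 0.18 between MCF10A and MCF10AT1 (adjusted p = 0.00417). The read-through gene COMMD3-BMI1, which shares sequence with it, had 3.35 to 24.2 counts per library.

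PCGF2 (MEL18, chr17:38733897-38749817, minus strand) encodes the closest paralog of BMI1. It was found at 29.6, 26.5 and 26.8 CPM in MCF10A, 19.8, 18.9 and 19.3 CPM in MCF10AT1, and 35.7, 33.7 and 39.5 CPM in MCF10Ca1a. MCF10AT1 was lowest and MCF10Ca1a highest, without overlap. PCGF2 fell by 0.52 in MCF10AT1 against MCF10A (SE 0.07, edgeR adjusted p = 1.14e-05), the largest fall at that step, while MCF10Ca1a exceeded MCF10A by 0.39 (adjusted p = 7.12e-05). The BMI1 to PCGF2 ratio in TPM was 4.86 ± 0.64 in MCF10A, 5.96 ± 0.29 in MCF10AT1 and 1.39 ± 0.21 in MCF10Ca1a (SD, n = 3). BMI1 stayed above PCGF2 in all 9 libraries, and the ratio was 3.51-fold lower in MCF10Ca1a than in MCF10A (exact permutation p = 0.1, the smallest possible).

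**Figure D3:**
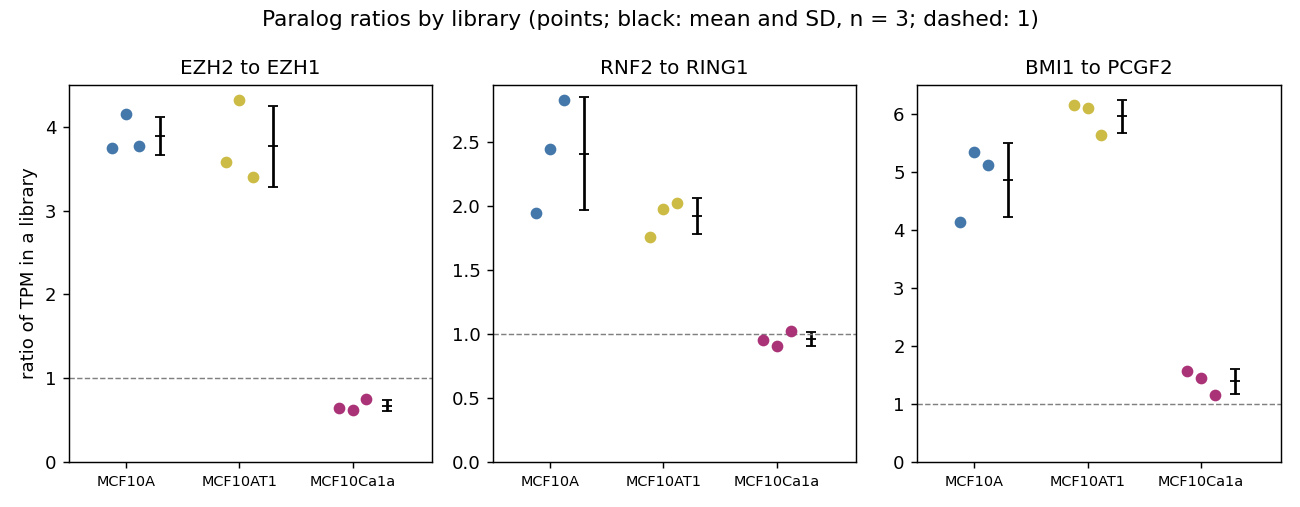
Ratio of TPM within a library (y axis) for 3 paralog pairs in the 3 lines, with points for libraries, black marks for the mean and SD (n = 3) and a dashed line at 1. The MCF10Ca1a ratios are the lowest in each panel, and for EZH2 to EZH1 they lie between 0.620 and 0.746, below 1.

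CBX8 (chr17:79792132-79801683, minus strand) encodes a chromodomain protein of canonical PRC1. It was measured at 9.92, 8.79 and 8.90 CPM in MCF10A, 7.83, 7.56 and 7.59 CPM in MCF10AT1, and 5.92, 6.66 and 6.09 CPM in MCF10Ca1a. The lines did not overlap. CBX8 fell by 0.56 in MCF10Ca1a against MCF10A (SE 0.08, edgeR adjusted p = 2.13e-05), by 0.30 against MCF10AT1 (adjusted p = 0.00457) and by 0.26 in MCF10AT1 against MCF10A (adjusted p = 0.00869). Against MCF10AT1 its change was -0.04 on the log2(TPM + 1) scale (limma adjusted p = 0.735), and thinning all libraries to the smallest moved the adjusted p of MCF10AT1 against MCF10A to 0.0518.

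These scales differ for the genes as a whole. The median log2 change of all genes between MCF10Ca1a and MCF10AT1 was -0.04 with TMM-scaled counts and 0.13 on log2(TPM + 1), and the share of called genes that were higher was 48.5% and 61.6%. For MCF10AT1 against MCF10A those shares were 48.4% and 36.2%, and for MCF10Ca1a against MCF10A 48.2% and 55.0%. The Polycomb genes called between MCF10Ca1a and MCF10AT1 were 5 higher and 5 lower with counts, and 5 higher and 3 lower with TPM. The calls against MCF10A (4 higher, 5 lower) were the same in number on both scales.

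By TPM, BMI1 was the most abundant of the 10 in MCF10A (72.8 ± 6.07) and in MCF10AT1 (57.9 ± 3.60), and CBX8 the least abundant in all lines (3.29 ± 0.62, 2.31 ± 0.19 and 2.21 ± 0.15; SD, n = 3). In MCF10Ca1a SUZ12 was highest (39.2 ± 1.58 TPM), then BMI1 (32.6 ± 1.90) and PCGF2 (23.8 ± 2.60). PCGF2, EZH1 (21.2 ± 1.52) and EED (20.7 ± 0.62) overlapped as neighbours in that order, as did RING1 and RNF2. EZH2 moved from rank 4 in MCF10A to rank 8 in MCF10Ca1a, and EZH1 from rank 8 to rank 4. In MCF10A the neighbours SUZ12 and EED, and EZH1 and JARID2, overlapped.

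The BMI1 and PCGF2 levels were set in their family. Among the 6 PCGF genes BMI1 made up 39.7 ± 1.91% of the summed TPM in MCF10A, 37.5 ± 0.91% in MCF10AT1 and 20.5 ± 0.88% in MCF10Ca1a. PCGF1, the partner of variant PRC1 with KDM2B, made up 14.1 ± 0.85%, 16.8 ± 0.27% and 28.9 ± 0.64%, and was the most abundant PCGF transcript in MCF10Ca1a. PCGF2 made up 8.24 ± 0.88%, 6.29 ± 0.15% and 14.96 ± 1.79%. The summed TPM of the family was 183 ± 9.43, 155 ± 6.07 and 159 ± 4.92 in MCF10A, MCF10AT1 and MCF10Ca1a, and the last of these overlapped MCF10AT1. PCGF1 was higher in MCF10Ca1a than in MCF10A (log2 change 0.67, edgeR adjusted p = 1.19e-07), while PCGF6 (-0.89, adjusted p = 1.01e-07), PCGF3 (-0.51, adjusted p = 3.22e-07) and PCGF5 (-0.47, adjusted p = 3.43e-07) were lower. The PCGF3 call was lost on the TPM scale.

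Of the other CBX genes of PRC1 that are reported here, CBX7 was higher in MCF10Ca1a than in MCF10A (log2 change 2.66, edgeR adjusted p = 1.95e-10), as was CBX2 (0.29, adjusted p = 0.00190, lost with the length-scaled and scaled counts). CBX6 differed by -0.11 (adjusted p = 0.326).

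**Figure D4:**
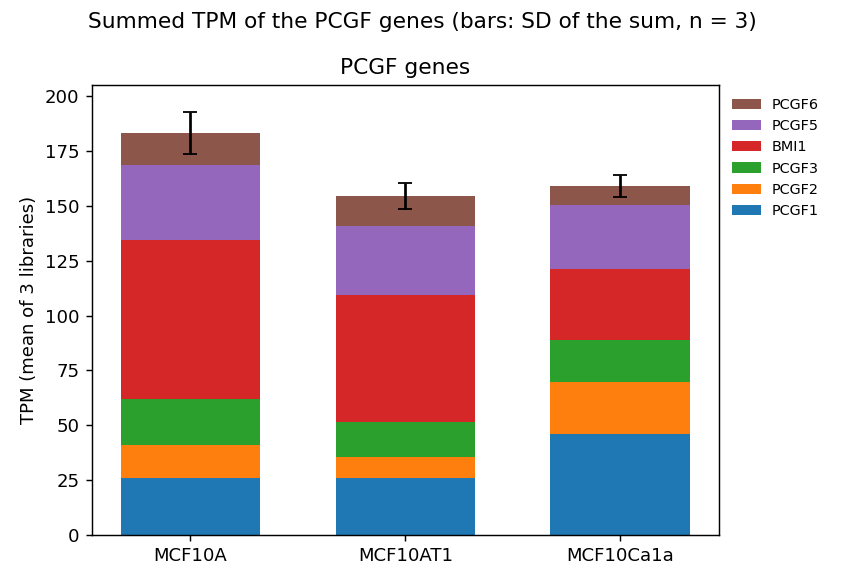
Summed TPM (y axis, mean of 3 libraries) of the 6 PCGF genes in each line, stacked by gene, with bars for the SD of the sum (n = 3). BMI1 goes from 39.7% of the sum in MCF10A to 20.5% in MCF10Ca1a, and PCGF1 from 14.1% to 28.9%.

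The remaining genes of the pathway were counted in fixed lists. Of 10 other PRC2 genes 9 were tested, and in MCF10Ca1a against MCF10A 3 rose and 4 fell (edgeR; median log2 change -0.03, beside -0.05 for all genes). PHF1 (log2 change 1.67, edgeR adjusted p = 4.66e-11) and LCOR (1.80, adjusted p = 7.35e-12) rose, and PHF19 (-1.59, adjusted p = 3.08e-12) and EPOP (-1.17, adjusted p = 2.73e-08) fell. LCOR encodes a nuclear receptor corepressor as well as a longer protein that binds PRC2, and its value is for the whole gene. PHF1 and PHF19 are paralogous Polycomb-like proteins that tether PRC2 to DNA. PHF1 went from 13.5 ± 0.64 to 43.03 ± 1.71 CPM and PHF19 from 116 ± 4.02 to 38.4 ± 1.63 CPM (SD, n = 3). On the TPM scale the list gave 4 rises and 3 falls, with a median of 0.15, beside 0.06 for all genes.

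Of 28 other PRC1 genes, all tested, 12 rose and 11 fell in MCF10Ca1a against MCF10A (median log2 change -0.08, beside -0.05 for all genes). On the TPM scale 11 rose and 6 fell (median 0.05, beside 0.06 for all genes). SCMH1, a PRC1-associated MBT-domain protein, fell by 1.15 (edgeR adjusted p = 3.54e-09). AUTS2, a partner of variant PRC1, had 50, 40 and 37 counts in MCF10A and 0 in each MCF10AT1 library. It had 1, 0 and 0 counts in MCF10Ca1a, so it was at least 7.49-fold lower there than in MCF10A against a floor of 3 counts per library, and at least 13.9-fold lower in MCF10AT1. With AUTS2 at that bound the median of the list stayed at -0.08. Floors cover counting error only.

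Enzymes that oppose Polycomb marks were counted together with their partner proteins. Of 12 genes of the H2AK119 deubiquitinase complexes 11 were tested, and 8 rose and 2 fell in MCF10Ca1a against MCF10A (median log2 change 0.62). Over all genes tested, 39.0% rose and 41.9% fell. The count covers partners as well, so it does not stand for the enzymes alone. BAP1 itself was 0.23 higher (edgeR adjusted p = 0.00500), a call lost without the filter on low counts. FOXK1, which binds the deubiquitinase BAP1 (1.82, edgeR adjusted p = 7.77e-11), and MYSM1, a deubiquitinase of histone H2A (1.76, adjusted p = 5.24e-11), had the largest rises. USP16 (-0.60, adjusted p = 1.05e-06) and OGT (-0.57, adjusted p = 2.70e-04) fell. Of 4 H3K27 demethylases and acetyltransferases, KDM6B, which removes the mark of PRC2, rose by 2.51 (adjusted p = 1.01e-13), from 15.1 ± 0.07 to 86.2 ± 1.98 CPM (SD, n = 3). EP300 rose by 1.77 (adjusted p = 7.86e-12), KDM6A differed by 0.06 (adjusted p = 0.362), and CREBBP was 0.21 lower (adjusted p = 0.0109) with counts but 0.05 higher at most on the TPM scale.

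Proliferation genes were measured beside these because EZH2 transcription is known to follow the cell cycle. All 23 genes of that list were lower in MCF10Ca1a than in MCF10A (median log2 change -1.97), and their summed level was 5360 to 5611 CPM in MCF10A, 4180 to 4362 CPM in MCF10AT1 and 1353 to 1386 CPM in MCF10Ca1a. CCNB1 fell by 3.59 (edgeR adjusted p = 1.02e-14), MKI67 by 1.76 (adjusted p = 7.05e-11) and MCM2 by 0.76 (adjusted p = 1.29e-06), while E2F1 fell by 0.16 (adjusted p = 0.0326), a call lost with DESeq2 size factors and without MCF10A replicate 1 or any 1 of the MCF10Ca1a libraries. In MCF10AT1 15 of the 23 fell against MCF10A and 2 rose, PCNA by 0.31 and E2F1 by 0.49 on the log2 scale. Over all genes tested, 31.8% fell and 29.8% rose in that comparison. The part of proliferation in the Polycomb changes was not tested.

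**Figure D5:**
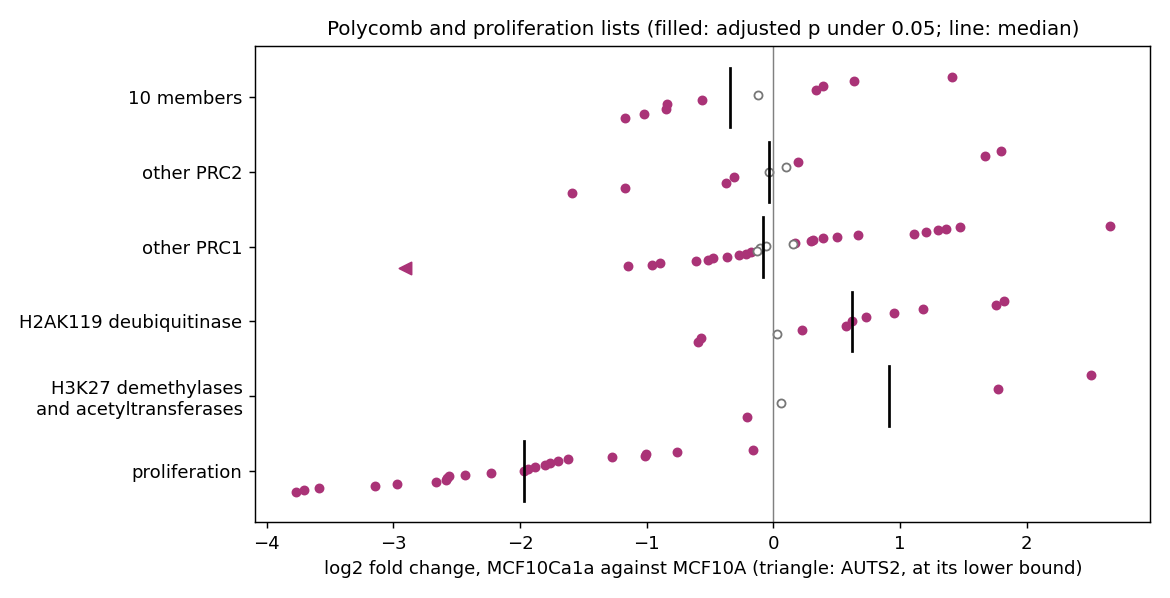
Log2 fold change of MCF10Ca1a against MCF10A (x axis) for the 10 Polycomb genes and 5 lists (y axis), 1 point per tested gene, filled where the edgeR adjusted p is under 0.05, with a line at each median. AUTS2 is a triangle at its lower bound; the proliferation genes all lie below 0 (median -1.97), while the Polycomb groups lie on both sides.

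Of the 10 genes 4 (EZH1, SUZ12, PCGF2 and CBX8) are on chromosome 17. The median log2 change of its 1038 tested genes was 0.29 in MCF10Ca1a against MCF10A and 0.33 against MCF10AT1. EZH1 (1.41) and PCGF2 (0.39) were above that median, and SUZ12 (-0.12) and CBX8 (-0.56) below it. Chromosome 1, which holds RNF2, had a median of -0.22 over 1775 tested genes in MCF10AT1 against MCF10A, where RNF2 was at -0.34. Its median was 0.04 in MCF10Ca1a against MCF10A and 0.33 against MCF10AT1, where RNF2 was at -0.85 and -0.50. The chromosomes of the remaining genes (6, 7, 10 and 11) had medians of -0.19 to -0.15 in MCF10Ca1a against MCF10A, of -0.21 to -0.11 against MCF10AT1, and of -0.04 to 0.02 in MCF10AT1 against MCF10A. DNA copy number was not analysed here.

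The genes most alike to EZH1 in their log2 CPM over the 9 libraries were PHC3, a Polyhomeotic subunit of canonical PRC1, LRIG2 and SH3BP2, with root mean square differences of 0.057, 0.080 and 0.085. PHC3 averaged 38.7 ± 0.74, 40.2 ± 2.81 and 99.7 ± 5.58 CPM in the 3 lines (SD, n = 3), a log2 change of 1.37 in MCF10Ca1a against MCF10A. On log2(CPM + 0.5), PHC3 was nearest again, and LINC01348 and RAB33A followed, both of which were near 0 in MCF10A (0.0147 and 0.0207 CPM). Those most alike to BMI1 were UROS, QSER1 and PLEKHJ1, with differences of 0.035, 0.038 and 0.038 and log2 changes of -1.15, -1.11 and -1.14.

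Transcript composition was compared within each gene by the share of its estimated counts taken by each transcript. Over all genes, 12.6% of 8850 had a changed share between MCF10AT1 and MCF10A, 47.8% between MCF10Ca1a and MCF10A and 41.1% between MCF10Ca1a and MCF10AT1 (limma, adjusted p under 0.05). Of the 7 Polycomb genes that could be tested, the count was 1, 4 and 2. BMI1, RING1 and CBX8 had 1 main transcript and gave no test, and EZH1, EZH2 and JARID2 were not called in any comparison.

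SUZ12 had the change that was called in MCF10Ca1a against MCF10A in each of 13 alternatives (limma adjusted p = 9.03e-04). Its minor transcript ENST00000580398.1 took 12.4%, 12.5% and 12.6% of SUZ12 counts in the MCF10A libraries, 15.98%, 16.02% and 15.7% in those of MCF10AT1, and 16.7%, 19.4% and 18.1% in those of MCF10Ca1a. The lines did not overlap. Relative to the main transcript ENST00000322652.10, this model lacks exon 4 of 16, which is in the coding sequence at chr17:31947617-31947685 (plus strand, GRCh38) and is 69 bases long. It is printed below because it is the coding difference between the transcripts.
SUZ12 exon 4: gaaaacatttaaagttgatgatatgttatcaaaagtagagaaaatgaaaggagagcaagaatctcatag
The models also differ in the ends of the first and last exons, so the shares do not count exon 4 alone. In MCF10AT1 against MCF10A the adjusted p was 0.0265 and held in 5 of 13 alternatives. Between MCF10Ca1a and MCF10AT1 the change was not called (limma adjusted p = 0.0777, called in 1 of 13).

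Among the other share calls, the PCGF2 transcript ENST00000616199.4 fell from 31.4 ± 6.55% of PCGF2 counts in MCF10A to 12.5 ± 3.94% in MCF10Ca1a (limma adjusted p of the gene 0.0154, called in 11 of 13 alternatives). It has a coding length of 1032 bases, as do ENST00000611883.4 and ENST00000620225.5, while ENST00000618506.1, the other PCGF2 transcript tested, has 609. The RNF2 transcript ENST00000367510.8 fell from 83.6 ± 2.28% to 68.8 ± 7.59% in MCF10Ca1a (adjusted p 0.0181, 8 of 13), and ENST00000367509.8, which lacks coding exon 4 of 7, was at 15.1 ± 2.51% and 22.5 ± 3.997%. A further RNF2 transcript that was too low to be tested, ENST00000453650.2, was at 0.896, 3.03 and 0% in the MCF10A libraries, at 0 in all 3 of MCF10AT1, and at 9.88, 3.904 and 12.5% in those of MCF10Ca1a. For RNF2 against MCF10AT1 the adjusted p was 0.0413 (3 of 13). EED was called between MCF10Ca1a and MCF10AT1 in 13 of 13 alternatives (limma adjusted p = 0.00906) and against MCF10A in 6 of 13 (adjusted p = 0.0325). The EED transcript ENST00000673233.2 was at 53.2 ± 2.32% in MCF10A, 66.0 ± 1.76% in MCF10AT1 and 49.98 ± 4.74% in MCF10Ca1a, and ENST00000672825.1 at 19.9 ± 4.49%, 16.2 ± 2.79% and 32.8 ± 9.21%. ENST00000351625.10 was at 15.1 ± 4.05%, 9.62 ± 1.85% and 4.37 ± 2.92%. By library, ENST00000672825.1 was at 36.1, 22.4 and 39.8% in MCF10Ca1a and at 24.9, 18.9 and 16.1% in MCF10A, so replicate 2 of MCF10Ca1a lay in the MCF10A range. In that library alone ENST00000263360.11, too low to be tested, took 16.2% of EED counts, and it was at 0 in all others. Shares are given as mean ± SD (n = 3), and the uncertainty of assigning reads to transcripts was not used.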

How the data were processed

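Poly-A RNA of 3 cell lines was sequenced with a stranded kit in 3 libraries each, per the labels' protocols. The authors deposited estimated counts per gene and per transcript and TPM per gene; the submitters' processing notes name Salmon and hg38, and the annotation and program versions are not given in the sources used here. The estimated counts the authors deposited were rounded to integers and filtered with filterByExpr (minimum count 10, total 15), which left 17910 of 62666 genes. They were tested with edgeR 4.0.16 (quasi-likelihood, TMM, R 4.3.3) with all 9 libraries in 1 fit and Benjamini-Hochberg adjustment at 0.05 over all genes. Standard errors were derived from each log2 change and F value, and 95% intervals from them by normal approximation, which is narrow at 3 libraries per line. TPM values were used as deposited, for levels, ratios and exact permutation tests. Transcript shares (5% minimum share, 50 counts per gene, pseudocount 0.5) were tested with limma 3.58.1 and Simes p-values. A deposited TPM table per transcript was not used. On simulated data with 200 genes changed in MCF10AT1, edgeR recovered 85 of 100 2-fold and 67 of 100 1.5-fold changes against MCF10A, with 18 false calls. For MCF10Ca1a against MCF10AT1 it recovered 79 and 67, with 9 false calls. The share test recovered 197 of 200 in each of these comparisons, with 6 and 26 false calls. Neither test gave a false call between MCF10Ca1a and MCF10A, where nothing was changed. Positions are from GENCODE 29 (GRCh38) through unversioned identifiers, promoters from RefSeq (GRCh38.p14).

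The members and lists were chosen with earlier results of these data known. Named genes were the 10 members, the other PCGF and CBX genes (1 of these and its values were left out), the 2 largest called rises and falls of each other list in MCF10Ca1a against MCF10A, 4 proliferation genes, and the 3 genes nearest to the members with the largest rise and fall by root mean square difference of centred log2 CPM. That rule gave no pseudocount. After log2(CPM + 0.5) had placed genes near 0 beside EZH1, edgeR's log2 CPM (prior count 2) was taken instead, and both outcomes are printed. PECAM1, SUZ12P1, COMMD3-BMI1, KDM6A, BAP1, PCNA and HRAS were added for context. Alternatives were DESeq2 1.42.0 (Wald test and size factors), no filter, length-scaled and scaled counts, a replicate block, thinning, limma on log2(TPM + 1) and log2(TPM + 0.1), a minimum log2 change of 1, a fit on the compared lines alone, and omission of each library. No replicate libraries held identical values.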

Additional observations from a re-analysis of the deposited data

How the results depend on the processing

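Of 600 alternative values for the changes of the 10 genes, over 20 settings, 526 kept their direction and side of the threshold, 21 lost a call under a minimum log2 change of 1, 30 lost it otherwise, 5 gained one and 18 changed sign. All 18 belong to changes that were not called with edgeR. For RING1 in MCF10AT1 against MCF10A the log2 change was -0.0051 with DESeq2 size factors, -0.0054 in the DESeq2 Wald test, -0.044 with length-scaled and -0.045 with scaled counts, -0.014 when thinned, -0.15 on log2(TPM + 1) and -0.17 on log2(TPM + 0.1), and -0.052 to 0.077 without 1 library. In that comparison EZH1 gave -0.0091 and -0.011, EZH2 -0.062 and -0.064, and JARID2 -0.012 and -0.011 on log2(TPM + 1) and log2(TPM + 0.1). SUZ12 in MCF10Ca1a against MCF10A gave 0.0017 and 0.0019 there. The log2 difference of the EZH2 to EZH1 ratio in MCF10AT1 against MCF10A ran from -0.16 to 0.017 without 1 library, positive only without MCF10AT1 replicate 3. Differences of a ratio between lines are the same with length-scaled counts by construction. The cause of these changes was not tested.

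Requiring a change beyond a log2 of 1 left 0, 2 and 2 members (MCF10AT1 against MCF10A first, then MCF10Ca1a against MCF10A, then against MCF10AT1), of 1994, 6252 and 5148 genes, by the stricter null. The members with a changed transcript share (1, 4 and 2) became 2 in the first comparison with a minimum share of 10%. With diffSpliceDGE they were 1 (PCGF2 in place of SUZ12), 3 (without RNF2) and 1 (EED). Without 1 library they ran from 0 to 2, from 2 to 4 and from 1 to 2. Deviations of same-numbered libraries of different lines correlated from -0.174 to 0.202, and those of other numbers from -0.205 to 0.182. With 3 libraries per line these values neither show nor exclude a pairing by replicate number. With the replicate block 5, 9 and 10 members were called, and 0, 1 and 1 in the share test. The MCF10Ca1a libraries had the fewest counts, 32.9 to 35.2 M, which limits how well low transcripts are measured there.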
